A study of Mus musculus with 39 samples.

Results

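The Spata genes are a set of mouse genes that share a name, spermatogenesis-associated, and not a common sequence. All symbols that begin with Spata and a digit were taken from the feature list of the single-cell libraries, which gave 30 of 32285 features. The study compared testes of control males (Kdm6a fl/y; Cre-) with testes of conditional knockout males (Kdm6a fl/y; Ddx4-Cre+, called cKO below), in which the floxed X-linked histone demethylase gene Kdm6a (also called Utx) is deleted in germ cells by a Cre expressed from Ddx4. Both genotypes carry the floxed allele. Droplet single-cell RNA sequencing of dissociated whole testis gave 1 library per genotype, and sorted cKIT+ spermatogonia were profiled by ATAC-seq and by H3K27me3 CUT&Tag, with 2 libraries of control cells and 3 of cKO cells for each assay and 1 IgG control. The transcript tables of the whole-testis and cell-line RNA libraries could not be paired with gene symbols and were not used here. With 1 single-cell library per genotype, no difference between the genotypes could be tested. The intervals below are 95% intervals for counting error alone and do not hold the spread between animals.

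Spermatogenesis runs from spermatogonia, the dividing stem and progenitor cells, through spermatocytes, which recombine and segregate their chromosomes in meiosis, to haploid round spermatids and then elongating spermatids, which pack their DNA with protamines and build the acrosome, flagellum and mitochondrial sheath. Many Spata genes were named for transcripts found in testis, and their proteins include meiotic DNA-binding factors, structural parts of the sperm neck, mitochondrial proteins of the sperm midpiece, and proteins with roles in all cells. KDM6A removes methyl groups from lysine 27 of histone H3, and trimethylation of that residue (H3K27me3) is a mark of repressed genes.

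The sequences upstream of the members differed in their content of the dinucleotide CG, and that content went with whether the start lay in accessible chromatin in cKIT+ spermatogonia. The RefSeq promoter table (build GRCm38.p6) held 28 of the 30 members. The 250 bases before the start are printed 5′ to 3′ for 7 of them, with every CG in capitals. Spata22 and Spata5 are shown because they stood out in spermatogonia and early spermatocytes, Spata18 for its H3K27me3, Spata46 as a spermatid gene with no CG, and 3 members of the Spata31d1 family because 2 of their promoters are near copies.
Spata22 (chr11:73329491-73329740, plus strand): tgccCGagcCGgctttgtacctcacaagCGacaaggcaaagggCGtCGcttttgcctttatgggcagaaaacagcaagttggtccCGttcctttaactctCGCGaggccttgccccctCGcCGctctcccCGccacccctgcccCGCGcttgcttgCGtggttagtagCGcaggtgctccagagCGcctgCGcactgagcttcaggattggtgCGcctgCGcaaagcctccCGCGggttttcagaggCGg
Spata5 (chr3:37419700-37419949, plus strand): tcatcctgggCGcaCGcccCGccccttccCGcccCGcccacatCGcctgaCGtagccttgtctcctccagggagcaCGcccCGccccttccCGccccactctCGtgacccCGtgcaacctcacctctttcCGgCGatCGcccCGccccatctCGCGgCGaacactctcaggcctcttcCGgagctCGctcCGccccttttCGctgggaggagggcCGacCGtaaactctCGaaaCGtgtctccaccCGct
Spata18 (chr5:73651130-73651379, plus strand): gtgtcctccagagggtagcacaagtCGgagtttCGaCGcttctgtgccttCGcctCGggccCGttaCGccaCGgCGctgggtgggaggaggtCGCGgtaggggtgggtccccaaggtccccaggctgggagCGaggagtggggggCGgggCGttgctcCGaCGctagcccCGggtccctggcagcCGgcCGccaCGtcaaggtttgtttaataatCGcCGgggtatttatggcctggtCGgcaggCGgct
Spata46 (chr1:170308569-170308818, plus strand): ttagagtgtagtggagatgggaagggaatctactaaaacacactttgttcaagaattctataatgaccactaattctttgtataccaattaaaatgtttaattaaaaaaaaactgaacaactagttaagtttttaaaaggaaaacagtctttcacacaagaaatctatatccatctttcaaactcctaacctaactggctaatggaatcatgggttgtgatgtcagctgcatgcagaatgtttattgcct
Spata31d1a (chr13:59706198-59706447, minus strand): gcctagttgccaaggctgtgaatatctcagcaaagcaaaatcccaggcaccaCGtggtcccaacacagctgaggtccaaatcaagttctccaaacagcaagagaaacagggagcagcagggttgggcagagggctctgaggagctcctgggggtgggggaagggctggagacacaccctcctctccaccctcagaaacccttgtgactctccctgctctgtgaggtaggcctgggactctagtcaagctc
Spata31d1b (chr13:59712034-59712283, plus strand): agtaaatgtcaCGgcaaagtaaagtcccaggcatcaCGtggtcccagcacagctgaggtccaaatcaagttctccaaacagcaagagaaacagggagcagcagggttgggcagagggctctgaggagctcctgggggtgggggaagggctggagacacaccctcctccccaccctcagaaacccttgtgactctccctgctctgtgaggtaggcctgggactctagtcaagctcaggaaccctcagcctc
Spata31d1c (chr13:65032808-65033057, plus strand): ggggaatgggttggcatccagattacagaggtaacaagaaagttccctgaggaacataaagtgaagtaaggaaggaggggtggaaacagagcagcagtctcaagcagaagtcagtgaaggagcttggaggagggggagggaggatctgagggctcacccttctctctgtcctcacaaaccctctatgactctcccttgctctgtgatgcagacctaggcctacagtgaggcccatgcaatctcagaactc
Spata22 held 22 CG in this window, Spata5 held 28 and Spata18 held 24. Spata31d1b held 2, Spata31d1a held 1, and Spata46 and Spata31d1c held 0. Aligned over 266 positions, the Spata31d1a and Spata31d1b windows were 85.0% identical, and their longest shared run was 120 bases. The other 9 pairs among the 5 Spata31 genes were 49.0% to 63.0% identical, with shared runs of 9 to 15 bases.

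The single-cell files held 229882646 unique molecular identifiers (UMIs, each counting 1 captured RNA molecule once) in the control library and 172368722 in the cKO library. After barcodes under 3000 UMIs or over 10% mitochondrial UMIs were left out, 10988 control and 8258 cKO cells remained, with medians of 8562.5 and 8683 UMIs. Cells were put in classes by marker genes, none of them a Spata gene, and the classes below are named for those markers: 264 control and 222 cKO spermatogonia-like cells, 917 and 498 early spermatocyte-like, 1661 and 1163 late spermatocyte-like, 1684 and 1663 round spermatid-like, 4083 and 2919 elongating spermatid-like, and 109 and 77 Leydig-like cells. The other classes named for somatic markers were Sertoli-like (369 and 210 cells), peritubular myoid-like (254 and 196), endothelial-like (253 and 206) and macrophage-like cells (82 and 68). Of their own 4 markers, the endothelial-like class had 0 among its leading genes and the myoid-like class 1. Fam71b was a leading gene of both, and of a cluster of elongating spermatid-like cells (clusters are described below). No cluster was named for either class, so these 2 names are uncertain. A further 11.9% of control and 12.5% of cKO cells had no class, no doublets were removed, and 27 barcodes occurred in both libraries. Kdm6a itself had 149 UMIs in control and 8 in cKO early spermatocyte-like cells, or 23.6 and 2.19 UMIs per 1000000 UMIs (CPM). The log2 ratio of cKO to control was -3.43 there (-4.67 to -2.42), and -0.74 (-1.92 to 0.34) in spermatogonia-like cells, where the genotypes had 24 and 11 UMIs. The Kdm6a UMIs were not placed within the gene, so reads outside the floxed part may be among them.

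Levels are given as CPM, the UMIs of a gene per 1000000 UMIs summed over the cells of a class and library. A 3′ UMI counts a molecule once, so the levels were not divided by transcript length. Spata RNA was at its highest in spermatids. The summed Spata level was 4227 CPM in control and 3850 CPM in cKO spermatogonia-like cells, and 3990 and 3446 CPM in early spermatocyte-like cells. It was 5862 and 5884 CPM in late spermatocyte-like cells. In round spermatid-like cells it was 12427 and 12196 CPM, and in elongating spermatid-like cells 13313 and 13135 CPM. The classes named for somatic markers also held Spata RNA. The peritubular myoid-like and endothelial-like classes shared leading genes with clusters of elongating spermatid-like cells, so their Spata RNA cannot be placed outside the germ line. Leydig-like cells, the steroid-producing cells between the tubules, had the lowest summed level of the 5 somatic classes, 4133 CPM in control and 4287 CPM in cKO, about that of spermatogonia-like cells. Sertoli-like cells had 9113 and 8813 CPM, peritubular myoid-like cells 10718 and 9887 CPM, endothelial-like cells 10209 and 10212 CPM, and macrophage-like cells 8649 and 9474 CPM. These 4 classes were thus above spermatogonia-like and both spermatocyte-like classes and below spermatids.

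RNA of the elongating spermatid gene Prm1 was also lowest in Leydig-like cells among the somatic classes, but it did not follow the sums throughout. Prm1 stood at 10914 and 10155 CPM in Leydig-like cells, at 26338 and 19461 CPM in macrophage-like cells and at 30017 to 38981 CPM in the other 3 somatic classes. In cKO, macrophage-like cells had a higher summed Spata level than Sertoli-like cells (9474 and 8813 CPM) and less Prm1. From control to cKO the summed Spata level of macrophage-like cells rose (8649 to 9474 CPM) and their Prm1 fell. Free RNA was taken from barcodes of 500 or more and under 2000 UMIs, and its summed Spata level was 9396 CPM in control and 8756 CPM in cKO. These barcodes were chosen by UMI count alone, so cells of few UMIs may be among them. In Leydig-like cells Prm1 stood at 74.2% and 80.4% of its level in free RNA, and the summed Spata level at 44.0% and 49.0%. The UMIs expected from free RNA, at the median UMI count of such barcodes for each cell, came to 17.2% and 11.0% of the UMIs of Leydig-like cells, and to 5.88% and 4.10% in late spermatocyte-like cells.

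More members stood above the classes named for somatic markers in spermatids than in the earlier classes. Of the 28 members that reached 10 CPM in a control class, 1, Spata5, had a Poisson interval wholly above that of each of the 5 somatic classes in both libraries in spermatogonia-like cells, beside 13.3% of all 11907 genes that reached 10 CPM. In early spermatocyte-like cells 2 members, Spata5 and Spata22, did so, beside 15.3% of all genes. In late spermatocyte-like cells 3 did (Spata4, Spata5 and Spata16), beside 14.1%. The number was 10 in round spermatid-like cells, beside 10.9%, and 10 in elongating spermatid-like cells, beside 6.27%. Against Leydig-like cells alone the numbers were 1 and 2 in spermatogonia-like and early spermatocyte-like cells, beside 18.4% and 22.9% of all genes. They were 7 in late spermatocyte-like, 20 in round and 16 in elongating spermatid-like cells, beside 25.4%, 26.4% and 13.2%. The comparison with all 5 classes was chosen after the data were seen. Because the peritubular myoid-like and endothelial-like classes shared leading genes with clusters of elongating spermatid-like cells, it may partly compare spermatids with spermatids.

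By the class of highest control level, 4 members belonged to spermatogonia-like cells, 1 to early and 3 to late spermatocyte-like cells, 11 to round and 11 to elongating spermatid-like cells. The class was the same in the cKO library for 28 of 30 members. Spata1 moved from late spermatocyte-like to round spermatid-like cells, and Spata31d1c from round to elongating spermatid-like cells. Both had control intervals that overlapped between their highest and next class. Of the 28 members with 10 CPM, 39.3% were highest in round and 39.3% in elongating spermatid-like cells. Among all such genes the shares were 18.8% and 10.1%. The fold of the highest over the next class ran from 1.00 to 8.47 with a median of 1.69, and 5 of the 28 overlapped with the next class. The name of the set thus described where most members were expressed, but not Spata5l1 and Spata13, which stayed below 10 CPM in every control class.

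**Figure D1:**
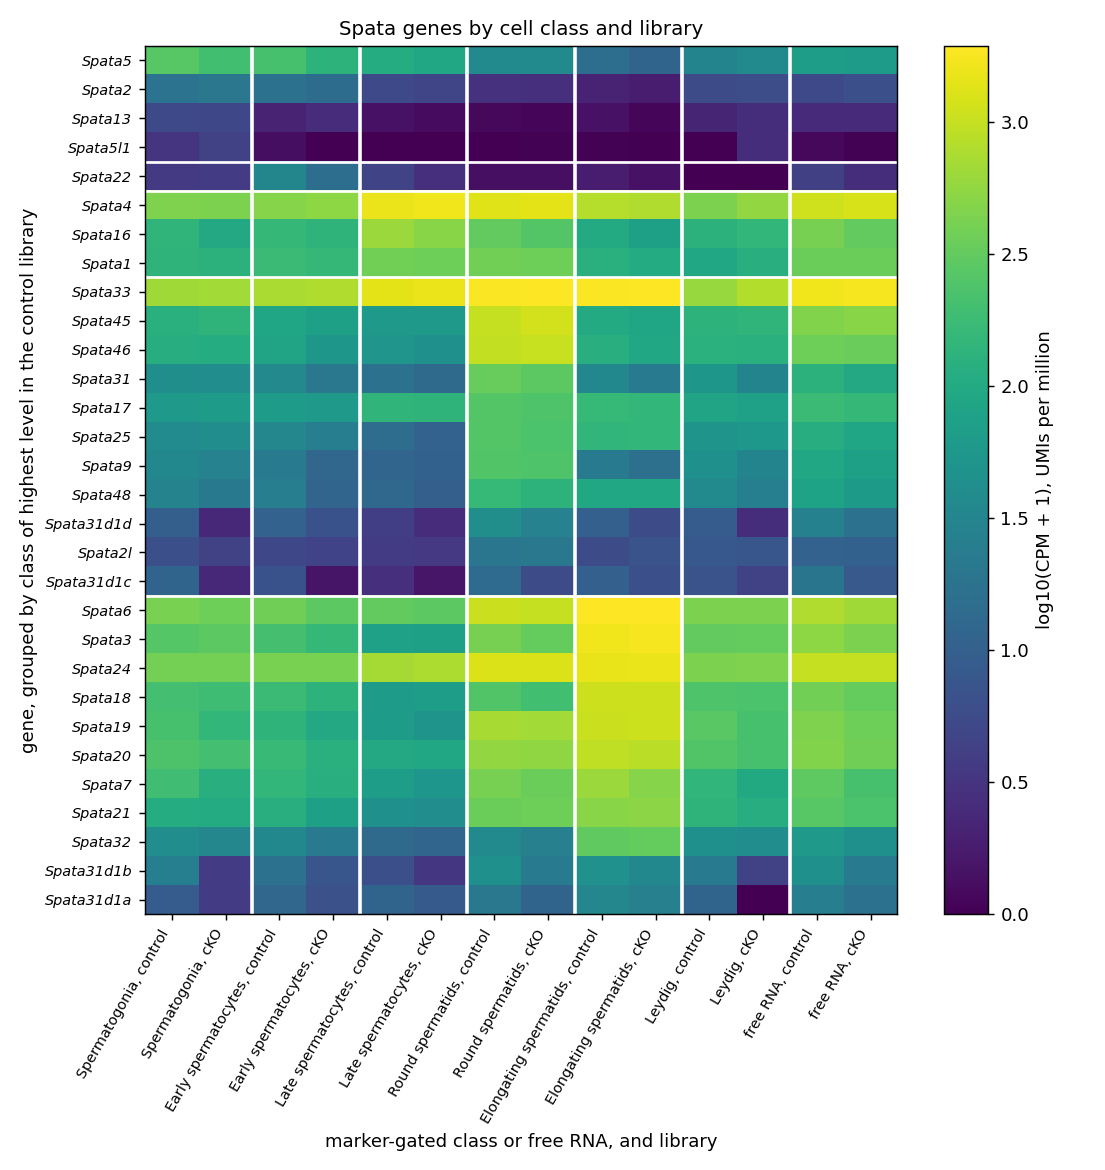
Heat map of the level of each Spata gene (rows, coloured by log10 of CPM plus 1) in each marker-gated class and in free RNA of the control and cKO libraries (columns). The 2 libraries show the same layout, with 22 of 30 genes highest in round or elongating spermatid-like cells of the control library.

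The members highest in spermatogonia-like cells were genes with known roles outside the germ line. Spata5 encodes an AAA-type ATPase that acts in the maturation of ribosomes. It stood at 269 CPM (246 to 293) in control and 197 CPM (174 to 221) in cKO spermatogonia-like cells, where Leydig-like cells had 29.2 and 36.5 CPM. Its level was lower in each later class, with 212 and 131 CPM in early spermatocyte-like cells, 108 and 88.7 CPM in late ones, 36.2 and 35.7 CPM in round and 14.4 and 10.5 CPM in elongating spermatid-like cells. Spata2, an adaptor that brings the deubiquitinase CYLD to ubiquitin ligase complexes, had 16.96 CPM in control and 19.4 CPM in cKO, from 32 and 28 UMIs. Spata13, a guanine nucleotide exchange factor, had 8 and 6 UMIs (4.24 and 4.15 CPM). Spata5l1, an ATPase related to Spata5, had 4 and 5 UMIs (2.12 and 3.46 CPM). No ratio is given for the last pair of genes, which had under 30 UMIs over both libraries. The 3 members with the most UMIs in control spermatogonia-like cells were Spata33 at 649 CPM, Spata4 at 442 CPM and Spata6 at 419 CPM. Their levels in control Leydig-like cells were 594, 437 and 436 CPM, so these genes stood at about the Leydig-like level there.

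Spata22 was the member with the sharpest early peak. Its protein binds single-stranded DNA together with MEIOB during meiotic recombination. It stood at 31.0 CPM (26.8 to 35.7) in control early spermatocyte-like cells from 196 UMIs, and at 14.5 CPM (10.8 to 18.9) in cKO cells from 53 UMIs. In control its level was 8.41-fold above that of the next class, late spermatocyte-like cells. Leydig-like cells had 0 UMIs in either library, which allows up to 3.50 CPM in control and 4.98 CPM in cKO. A Spata22 UMI was found in 18.3% of control and 9.44% of cKO early spermatocyte-like cells, whose medians were 5097 and 5713.5 UMIs, so the cKO cells were sequenced slightly more deeply. Thinned to 3000 UMIs per cell, the shares were 8.51% and 4.22%. In spermatogonia-like cells the gene was at 2.65 and 2.77 CPM, and in free RNA at 3.25 and 1.68 CPM.

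The log2 ratio of Spata22 was -1.10 (-1.57 to -0.66), that is 2.14-fold lower in the cKO library. Early spermatocyte-like cells were 8.35% of control and 6.03% of cKO cells, and their make-up differed, so the comparison was repeated inside clusters of cells made without the Spata genes. A cluster led by Ccnb3, Stra8 and Prdm9, genes of meiotic entry, held 492 control and 118 cKO cells, and Spata22 was at 26.7 and 12.7 CPM in it (68 and 8 UMIs). A cluster led by Rad51ap2, Mnd1 and Meiob, genes of recombination, held 313 and 232 cells, and the levels were 31.1 and 13.5 CPM (71 and 19 UMIs). In an unnamed cluster led by Rnf227, Adad2 and Tex12 (650 and 665 cells) they were 23.7 and 12.5 CPM (248 and 110 UMIs). The log2 ratios were -1.08 (-2.35 to -0.02), -1.20 (-2.02 to -0.46) and -0.92 (-1.25 to -0.59). Spata22 was lower in the cKO library in each of the 5 clusters with 30 UMIs, and all 5 intervals lay below 0. Stra8, which is switched on at meiotic entry, was also lower in the early class (log2 ratio -1.20). In the 713 control and 448 cKO early spermatocyte-like cells without a Stra8 UMI, a split chosen after the data were seen, Spata22 was at 33.1 and 15.7 CPM (log2 ratio -1.07, -1.55 to -0.62).

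Over the early class and its clusters the partner gene Meiob was nearly level between the libraries. Meiob, Stra8 and Dmc1 were among the 8 markers that defined the early class, and only Spata genes were left out of the clustering. Their levels there were thus not independent of the grouping. Spata22 took no part in the grouping, but whether its level followed the genes used for it was not tested. Meiob was at 185 CPM in control and 186 CPM in cKO early spermatocyte-like cells. The early markers as a list were not level there: 7 of 8 had a log2 ratio below 0, beside 61.5% of all genes. Of the 8, 2 were 2-fold lower, and their median log2 ratio was -0.34. Their summed level was 3065 CPM in control and 2616 CPM in cKO. In the meiotic entry cluster Meiob had 135 and 139 CPM, in the recombination cluster 296 and 299 CPM, and in the unnamed cluster 37.1 and 38.3 CPM. Other genes whose products act on meiotic single-stranded DNA were Rpa1 at 28.5 and 24.6 CPM, Rpa2 at 72.3 and 71.3 CPM, Hsf2bp at 136 and 149 CPM, and Dmc1 at 105 and 59.6 CPM in the early class. Of the 7 genes of that list in the files, 0 were 2-fold lower or higher, beside 5.56% and 0.287% of all genes in the early class. The median log2 ratio of the 7 was -0.21, and that of all genes -0.12. Dmc1 differed less inside clusters, with 174 and 154 CPM in the meiotic entry cluster and 75.7 and 67.5 CPM in the recombination cluster. Without a Stra8 UMI, Dmc1 was at 85.2 and 51.1 CPM (log2 ratio -0.74, with an interval below 0) and Meiob at 208 and 198 CPM (-0.07, -0.21 to 0.07). In the 204 control and 50 cKO cells with one, Meiob had 78.8 and 48.1 CPM (-0.71, -1.64 to 0.11). Spata22 had 24 and 0 UMIs in those cells, and the 0 allows up to 10.3 CPM.

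Spata5 was lower in the cKO library in more stages than one. Its log2 ratio was -0.45 (-0.67 to -0.24) in spermatogonia-like cells. The spermatogonial cluster had 274 CPM in control and 202 CPM in cKO, the meiotic entry cluster 294 and 218 CPM, and the recombination cluster 170 and 122 CPM. The log2 ratios in these clusters were -0.44, -0.43 and -0.47. The ratio was below 0 in 15 of 17 clusters with 30 UMIs, and the interval lay below 0 in 12. Its largest ratio by class was in early spermatocyte-like cells, with a log2 ratio of -0.69 (-0.84 to -0.54), or 1.61-fold. In its own class, spermatogonia-like cells, Spata5 stayed within 1.5-fold.

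**Figure D2:**
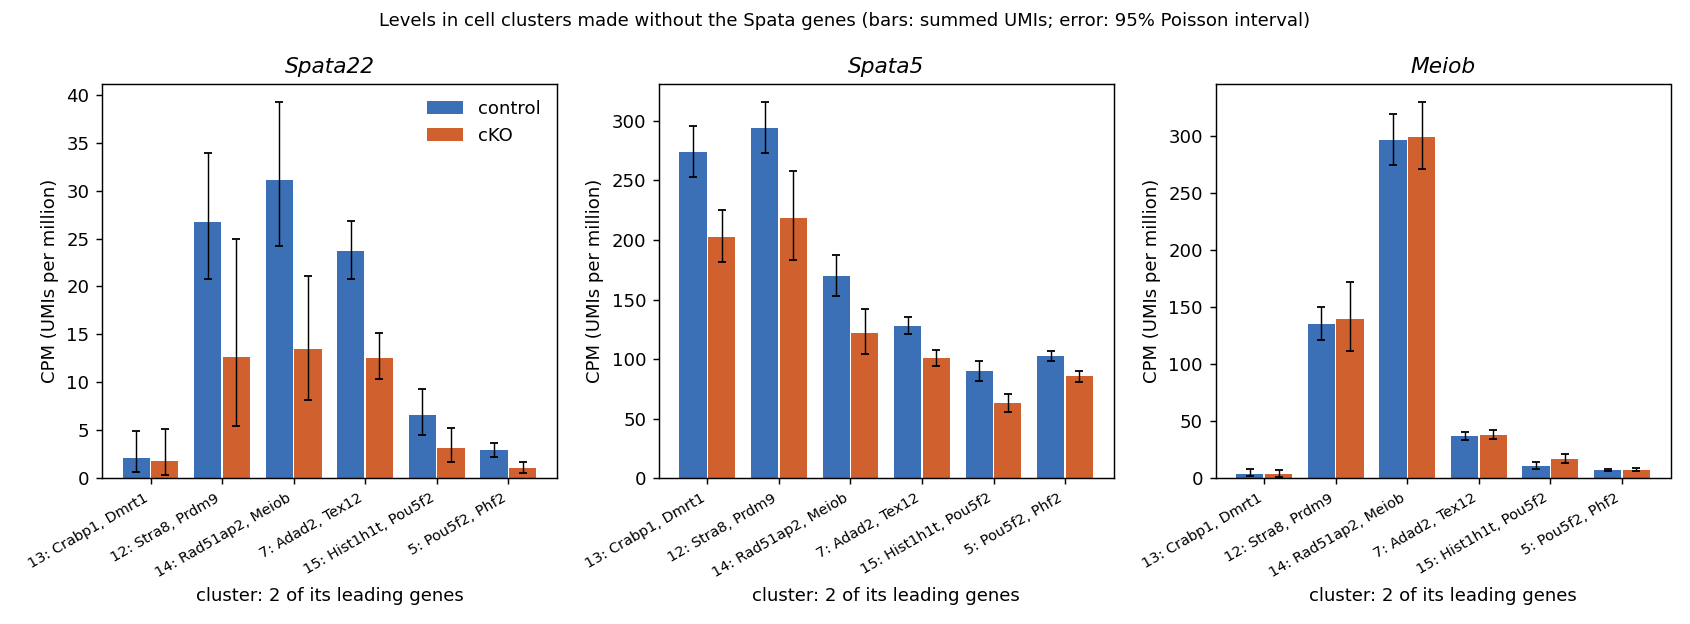
Levels in CPM (bars, with 95% Poisson intervals as error bars) of Spata22, Spata5 and Meiob in 6 cell clusters made without the Spata genes, control beside cKO, 1 library each. Spata22 is lower in the cKO library in each cluster shown with enough UMIs (31.1 against 13.5 CPM in the recombination cluster). Its partner Meiob, a marker used to define the early class, is at 296 and 299 CPM there.

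Spata4, Spata16 and Spata1 were highest in late spermatocyte-like cells. Spata4 stood at 1540 CPM in control and 1660 CPM in cKO late spermatocyte-like cells, and it remained at 1339 and 1442 CPM in round spermatid-like cells. Spata16, a Golgi protein needed for the acrosome, had 619 CPM in control and 497 CPM in cKO, and its log2 ratio was -0.32 (-0.35 to -0.28). That ratio was below 0 in 16 of 17 clusters, each of those 16 with its interval below 0. In the other cluster, of Leydig-like cells, it was 0.50 (0.04 to 0.97). Free RNA had 412 and 316 CPM of Spata16 (log2 ratio -0.38). Its part in the cluster ratios was not tested. Spata1 had 383 and 361 CPM. Spata33 and Spata24 followed Spata4 in this class, with 1439 and 703 CPM in control.

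Round spermatid-like cells held 5 of the 9 members whose control level was 4-fold or more above the next class. Spata46, a protein of the nuclear envelope beneath the acrosome, had 975 CPM in control and 1022 CPM in cKO, against 115 and 89.8 CPM in elongating spermatid-like cells. That is a control fold of 8.47 over the next class. Spata45 had 1007 and 1169 CPM, and its log2 ratio of 0.21 (0.19 to 0.24) was the highest of the members with 30 UMIs in their own class. Spata31 had 338 and 285 CPM (log2 ratio -0.25). Spata9 had 244 and 239 CPM. These 4 genes were lower again in elongating spermatid-like cells, where Spata31 had 33.3 and 22.7 CPM.

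In the control library Spata33 was level between round and elongating spermatid-like cells, and the other members highest in round cells were lower in elongating ones. Spata33, which anchors the sperm phosphatase calcineurin to mitochondria, had 1874 CPM in control and 1939 CPM in cKO round spermatid-like cells, and 1865 and 1891 CPM in elongating ones. The 2 control intervals overlapped, and the 2 cKO intervals did not. In cKO, Spata31d1c was at 4.87 CPM in round and 5.40 CPM in elongating spermatid-like cells. Spata17, a calmodulin-binding protein, had 256 and 239 CPM in round and 157 and 151 CPM in elongating spermatid-like cells. Spata25 (256 and 224 CPM), Spata48 (160 and 132 CPM) and Spata2l (18.8 and 20.01 CPM) were highest in round spermatid-like cells too.

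The members highest in elongating spermatid-like cells included Spata6, Spata18 and Spata19. Spata6, needed for the connecting piece that joins sperm head and tail, had 1935 CPM in control and 1905 CPM in cKO. Its round spermatid-like levels were 1066 and 1003 CPM. Spata19, a mitochondrial protein of the midpiece, had 1062 and 1080 CPM, and Spata18, a protein of mitochondrial quality control, had 1089 and 1077 CPM. These 2 mitochondrial genes had different onsets: Spata19 was already at 723 CPM in control round spermatid-like cells, and Spata18 was at 248 CPM there, close to its 239 CPM in Leydig-like cells.

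Spata20, a thioredoxin-like protein, had 928 and 876 CPM in elongating spermatid-like cells, and Spata24 had 1520 and 1559 CPM. Spata3 had 1653 and 1763 CPM, Spata21 had 499 and 520 CPM, and Spata32 had 306 and 321 CPM. Spata32, Spata18 and Spata3 had the sharpest late onset, with control folds of 7.60, 4.40 and 4.09 over the next class. Spata7, known from the connecting cilium of photoreceptors, had 626 CPM in control and 488 CPM in cKO. Its log2 ratio was -0.36 (-0.39 to -0.32), and it was below 0 in 17 of 18 clusters, in 15 of them with the whole interval. Free RNA had 299 and 214 CPM of Spata7 (-0.48), and in Leydig-like cells its log2 ratio was -0.54 (-1.01 to -0.08).

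In their class of highest control level the members differed between the libraries about as much as other genes. Of 28 members with 10 CPM and 30 UMIs in that class, 19 were within 1.2-fold, beside 67.1% of all such genes. The log2 ratio was below 0 for 17 members, beside 51.8%. Spata22 and Spata31d1c were past 1.5-fold with an interval that left out 0, and 6.3% of all such genes were. Spata31d1c reached 10 CPM through the control library alone, and its highest level in a cKO germ-cell class was 5.40 CPM. Of all genes 14.4% in spermatogonia-like, 20.5% in early and 8.81% in late spermatocyte-like, 12.5% in round and 12.4% in elongating spermatid-like cells were past 1.5-fold in either direction. Ratios of 2-fold were counted in every class over genes with 30 UMIs in the 2 libraries together. Some ratios reached that number through the control library, with under 30 UMIs in cKO. They were Spata31d1b in spermatogonia-like cells (48 and 4 UMIs) and Spata31d1c in late spermatocyte-like cells (68 and 14). In early spermatocyte-like cells they were Spata31d1a (70 and 20), Spata31d1b (102 and 24) and Spata31d1c (36 and 2). In spermatogonia-like cells 1 of 23 members with 30 UMIs was 2-fold lower in the cKO library (Spata31d1b), where 2.21% of all genes were. In early spermatocyte-like cells 5 of 28 were (Spata22, Spata31d1a, Spata31d1b, Spata31d1c and Spata48), beside 5.56% of all genes. In late spermatocyte-like cells 3 of 28 were (Spata22, Spata31d1b and Spata31d1c), beside 1.33%. In round spermatid-like cells 2 of 27 were (Spata31d1b and Spata31d1c), beside 2.33%, and in elongating spermatid-like cells 1 of 28 was (Spata31d1d), beside 1.98%. No member was 2-fold higher in any of these classes, where 0.595%, 0.287%, 0.242%, 0.426% and 0.245% of all genes were.

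The tilt towards lower levels was widest in early spermatocyte-like cells. There 26 of 28 members were below a log2 ratio of 0, as were 61.5% of all genes, with a median of -0.46 beside -0.12 for all genes. The median was -0.10 in spermatogonia-like cells (all genes -0.07), -0.19 in late spermatocyte-like cells (all genes -0.06), -0.10 in round spermatid-like cells (all genes -0.00) and -0.15 in elongating spermatid-like cells (all genes -0.13). Members below 0 were 17 of 23 in spermatogonia-like cells, beside 57.2% of all genes, and 23 of 28 in late spermatocyte-like cells, beside 58%. In round spermatid-like cells 21 of 27 were, beside 50.3%, and in elongating spermatid-like cells 19 of 28, beside 66.4%. In early spermatocyte-like cells Spata48 had 24.7 CPM in control and 10.7 CPM in cKO (log2 ratio -1.21, -1.76 to -0.70), and Spata9 had 21.5 and 11.2 CPM (-0.94). Spata31d1a had 11.1 and 5.46 CPM (-1.02), and Spata31 had 34.2 and 19.9 CPM (-0.78). The log2 ratios of Spata21, Spata32 and Spata46 were -0.65, -0.64 and -0.61. Markers of elongating spermatids were lower in the early class as well: 10 of 10 had a log2 ratio below 0, none of them was at 0 UMIs, and their summed level was 21971 CPM in control and 15325 CPM in cKO. Round spermatid markers were below 0 in 9 of 10, with sums of 543 and 425 CPM. The UMIs expected from free RNA were 19.6% of control and 11.7% of cKO UMIs in this class. In Leydig-like cells the same estimate expects 17.2% and 11.0% of the free RNA level of a gene, and Prm1 stood at 74.2% and 80.4%. The source of the spermatid RNA in the early class was not tested. Free RNA was subtracted at the shares expected for the early class, so any spermatid RNA beyond those shares stayed in. With it subtracted, an estimate chosen after the data were seen, 26 of the members kept a level above 0 in both libraries. Of these, 18 were below a log2 ratio of 0, beside 60.1% of all genes, and 3 were 2-fold lower (Spata22, Spata31d1b and Spata48), beside 7.42%. The log2 ratio of the summed Spata level was then 0.04. Of the 28 members, 26 were not above the somatic classes in both libraries there, and Spata5 and Spata22 were. Scaled by a trimmed mean of the log ratios of all genes, whose shift was -0.12 in both early spermatocyte-like and elongating spermatid-like cells, 25 of 28 members were below 0 in the early class, beside 50.7% of all genes. In elongating cells 14 of 28 were, beside 51.3%, and Spata6, Spata18 and Spata20 turned to 0.09, 0.10 and 0.03 there.

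**Figure D3:**
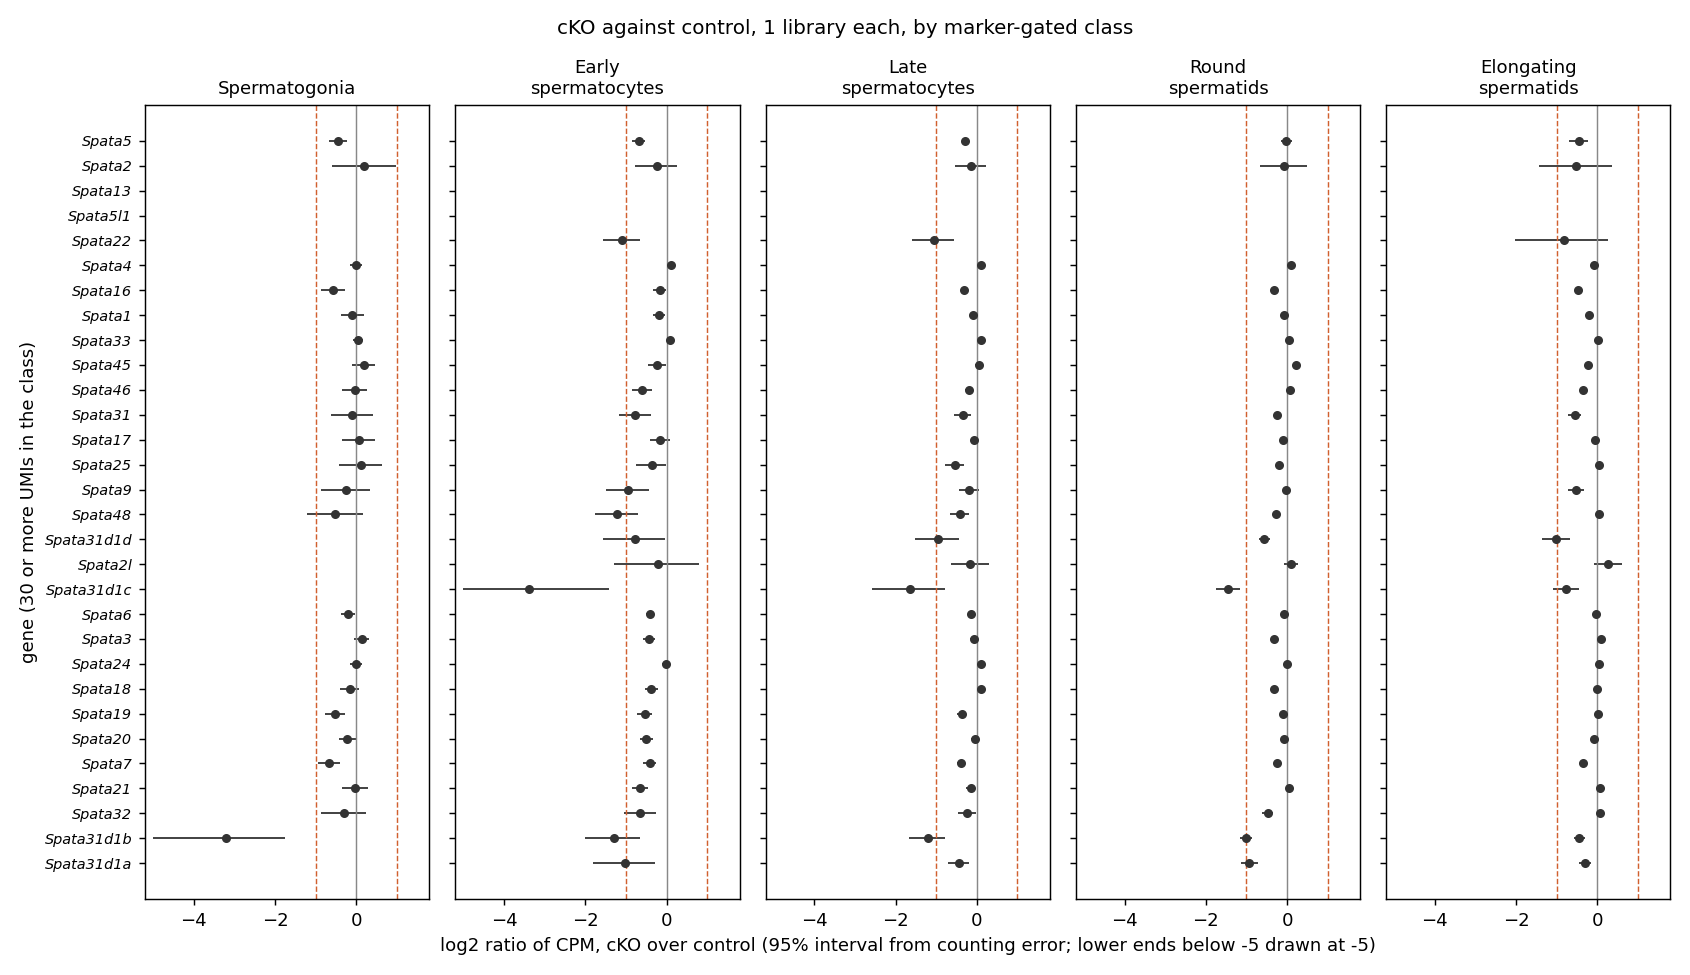
Log2 ratio of cKO to control CPM for each Spata gene with 30 UMIs over both libraries (points, with 95% intervals for counting error), 1 panel per marker-gated class. Points lie mostly below 0 in the early spermatocyte-like panel (26 of 28). They also do in the late spermatocyte-like (23 of 28), round (21 of 27) and elongating spermatid-like (19 of 28) panels, at medians nearer to it.

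The Spata31d1 genes were the members with the largest ratios in the most classes. Spata31 and the 4 Spata31d1 copies belong to a family that has multiplied in mammals, and Spata31 itself is needed for sperm formation. All 5 lie on chromosome 13 (GRCm38.p6): Spata31d1a at 59700083-59706587, Spata31d1b at 59712284-59719289, Spata31d1d at 59725925-59731752, Spata31 at 64917406-64923195 and Spata31d1c at 65033058-65038004. No source used here states how the authors' counting treated reads that match more than 1 copy, so the split of UMIs among the copies is uncertain.

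In round spermatid-like cells Spata31d1d had 41.3 CPM in control and 27.9 CPM in cKO. Spata31d1b had 43.5 and 21.6 CPM, and Spata31d1a had 19.8 and 10.4 CPM. Spata31d1c had 13.3 CPM (11.9 to 14.7) in control and 4.87 CPM (4.08 to 5.77) in cKO, a log2 ratio of -1.44 (-1.74 to -1.16). These were low levels. Leydig-like cells had 5 and 2 UMIs of Spata31d1c (5.84 and 3.32 CPM), with intervals that overlapped those of round spermatid-like cells, and free RNA had 17.9 and 7.20 CPM. Elongating spermatid-like cells had 45.6 and 33.6 CPM of Spata31d1b, and 32.3 and 26.0 CPM of Spata31d1a.

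The 4 copies were lower in the cKO library in free RNA as well. There Spata31d1a had 24.2 and 15.8 CPM, Spata31d1b had 43.3 and 22.4 CPM, and Spata31d1d had 27.1 and 16.1 CPM. In spermatogonia-like cells Spata31d1b had 25.4 CPM in control and 2.77 CPM in cKO (48 and 4 UMIs), and its log2 ratio was -3.20 (-5.13 to -1.75). Leydig-like cells had nearly the same values, 22.2 and 3.32 CPM (19 and 2 UMIs), so this ratio was seen at the level of somatic cells. Over all cells the log2 ratios were -0.52 for Spata31d1a, -0.69 for Spata31d1b, -1.10 for Spata31d1c and -0.45 for Spata31d1d, and 0.03 for Spata31.

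The make-up of the round spermatid-like class differed between the libraries. Its 3 clusters held 689, 636 and 548 control cells and 900, 680 and 271 cKO cells. Of the 3 clusters the last had the highest levels of Spata31d1a, Spata31d1b and Spata31d1c, and the differences in it were smaller than over the class. In that cluster Spata31d1b had 124 and 108 CPM (log2 ratio -0.20), Spata31d1d had 57.0 and 47.7 CPM (-0.26), and Spata31d1a had 46.6 and 35.0 CPM (-0.41). Spata31d1c had 39.1 and 26.0 CPM there (-0.59, -0.90 to -0.29), and in the cluster of 636 and 680 cells its log2 ratio was -1.38. It was lower in 11 of 11 clusters with 30 UMIs, with 9 intervals below 0. Of 26 members with 10 or more such clusters, 9 were below 0 in all but at most 2 clusters (Spata1, Spata5, Spata7, Spata16, Spata31 and the 4 Spata31d1 genes), beside 20.9% of 9586 genes. None of the 26 was above 0 in all but at most 2 clusters, beside 7.42%.

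The neighbours of the Spata31 genes on chromosome 13 were nearer to 0 than Spata31d1b and Spata31d1c over all cells, but not all were nearer than Spata31d1a, Spata31d1d or Spata31. In a window from 59000000 to 66000000, chosen after the data were seen, the 48 other genes had a median log2 ratio of -0.19 over all cells, with 32 below 0 and 0 past 2-fold. They ran from -0.60 to 0.59, a range that holds the values of Spata31d1a, Spata31d1d and Spata31 over all cells and not those of Spata31d1b and Spata31d1c.

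**Figure D4:**
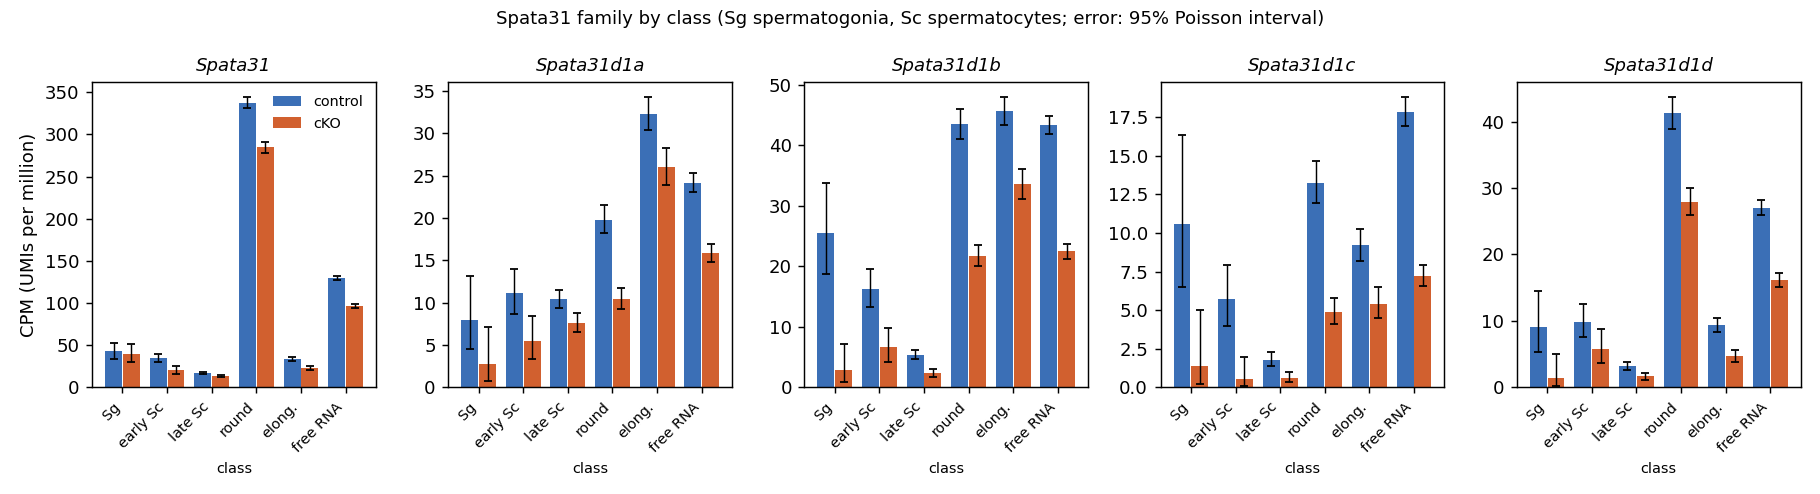
Level in CPM (bars, with 95% Poisson intervals) of the 5 Spata31 genes in each class and in free RNA, control beside cKO. The Spata31d1 copies are lower in the cKO library in each class shown, as Spata31d1c in round spermatid-like cells (13.3 against 4.87 CPM).

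In cKIT+ spermatogonia the members fell into those with accessible starts and those without. An ATAC peak of the authors lay within 1000 bases of the start in all 5 libraries for 9 of 28 members: Spata2, Spata5, Spata5l1, Spata6, Spata7, Spata13, Spata17, Spata22 and Spata33. Among all genes of the promoter table this share was 26.2%. For 13 members no library had a peak (48.4% of all genes), and for 6 members 1 to 4 libraries did. The 5 lists held 19118 and 33250 peaks in control and 14635, 18883 and 40497 in cKO. No member had a peak in every library of one genotype and none of the other, as 0.0185% (control alone) and 0.0296% (cKO alone) of all genes did. The peak names inside the list labelled cKO replicate 1 begin with the prefix that control replicate 1 also has, so which sample that list came from is uncertain. Without that list 10 members had a peak in every library.

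None of the 9 accessible starts belonged to a member highest in late spermatocyte-like cells (0 of 3, where 55.6% of all genes highest in that class had a peak in all 5 libraries). Spata1, highest in that class, had a peak in every library except cKO replicate 1, so without that list the count was 1 of 3. The authors' fold enrichment at Spata22 was 3.39 and 4.83 in control and 3.16, 3.43 and 5.20 in cKO. At Spata2 it was 7.05 and 6.94 in control and 4.49, 5.85 and 6.06 in cKO, and at Spata7 4.97 and 7.28 in control and 6.37, 6.38 and 6.77 in cKO. The groups overlapped at Spata22 and Spata7, and at Spata2 both control values were above the 3 cKO values. So were they at Spata13, with 6.48 and 6.49 in control and 4.61, 5.13 and 6.08 in cKO. Spata5 went the other way, with 5.907 and 5.610 in control below 5.954, 5.912 and 6.092 in cKO. At the remaining members with a peak in all 5 libraries the groups overlapped. With 2 against 3 libraries an exact two-sided permutation test cannot go below p = 0.1, and each fold is relative to its own list's background. Of the 10 members in the table that were highest in round spermatid-like cells, 2 had a peak in all 5 libraries and 8 in none. For all genes highest in that class the shares were 33.1% and 40.4%. Of 10 elongating spermatid-like members 2 had a peak in all 5 and 4 in none, beside 32.6% and 41.0% of all genes highest in that class.

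Accessibility followed the CG content shown above. The 9 members with a peak in all 5 libraries held 9 to 36 CG in the 250 bases before the start (median 22), and the 13 without a peak held 0 to 8 (median 2). For a gene with several starts the highest count was taken, here and for all genes. The other starts of Spata6 and Spata13 held 2 and 5. All genes had the same gradient: 1.59% of those with 0 to 4 CG, 13.5% with 5 to 9, 52.6% with 10 to 19 and 62.8% with 20 or more had a peak in every library. The members' counts in these 4 bins were 0 of 12, 1 of 6, 3 of 3 and 5 of 7. Spata18 and Spata1 were the CG-rich members without a peak in all 5 libraries.

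**Figure D5:**
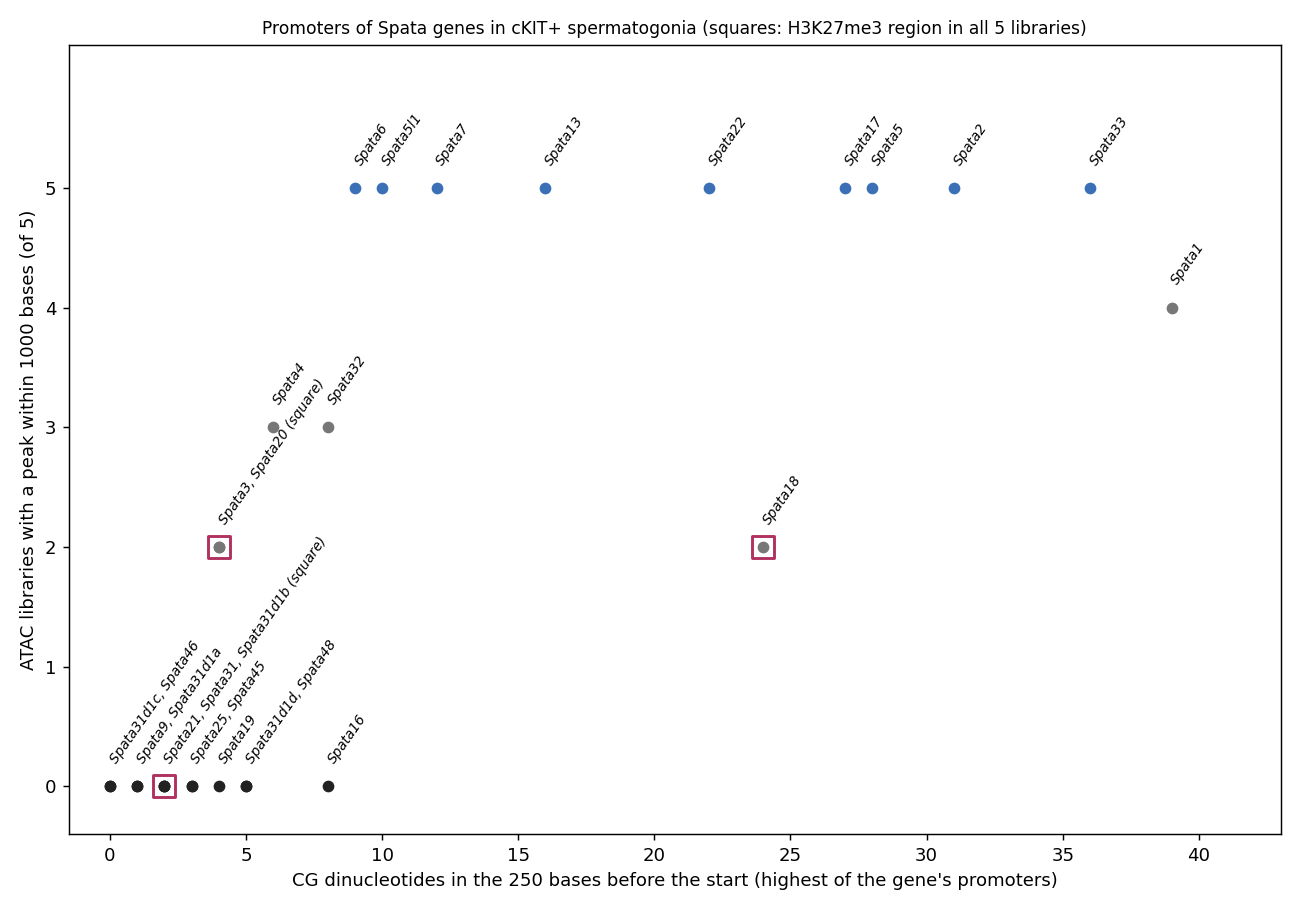
Number of ATAC libraries (of 5) with a peak within 1000 bases of the start, against the number of CG in the 250 bases before it, for 28 Spata genes. Squares mark the 3 genes with an H3K27me3 region in all 5 libraries, and the genes with 5 libraries hold 9 or more CG.

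H3K27me3 was found at few Spata starts. Spata18, Spata20 and Spata31d1b had a region of the authors within 1000 bases of the start in all 5 libraries (6.12% of all genes), and 23 members had none in any library (81.7%). No member had a region in every library of one genotype alone, as 0.681% (control) and 0.0333% (cKO) of all genes did, and the IgG list had none at a Spata start (0.625% of all genes). At Spata18, whose CG-rich upstream sequence is shown above, the regions were 3350 and 1416 bases long in control and 631, 1281 and 4906 in cKO. At Spata20 they were 4494 and 7037 bases in control and 2493, 1414 and 21011 in cKO. The lists held 14545 and 18494 regions in control and 11118, 14584 and 15368 in cKO.

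Regions of H3K27me3 also lay over gene bodies. At Spata31d1b the regions covered 89.0% and 90.0% of the gene in control and 88.4%, 78.4% and 90.0% in cKO, so the groups overlapped. Spata31d1b was the only 1 of 30 members with 50% or more of the gene covered in all 5 libraries, which 1.78% of 21900 protein-coding genes had. At Spata20 the coverage was 89.3% and 84.7% in control and 80.8%, 27.8% and 100% in cKO. At Spata31d1a it was 67.4% and 77.7% in control and 0%, 31.4% and 71.8% in cKO. At Spata31d1d it was 20.6% and 73.9% in control and 20.9%, 55.1% and 61.4% in cKO. Spata31 and Spata31d1c, which lie apart from these 3 copies, had 0% in all 5 libraries. At the Spata31d1b start the main region began downstream, inside the gene. At none of these 3 copies were all cKO values above both control values. At Spata18, Spata3 and Spata13, all less covered, every cKO value lay below both control values. Spata18 had 15.0% and 12.9% in control and 2.24%, 2.99% and 12.4% in cKO. Spata3 had 42.8% and 23.5% in control and 4.64%, 12.2% and 22.4% in cKO. Spata13 had 2.07% and 1.82% in control and 0%, 0.476% and 0.610% in cKO. No member had every cKO value above both control values. These differences were not tested. The share of all genes with every cKO value below, or above, both control values was not computed, so these counts cannot be set against other genes. The gene-body measure was chosen after the data were seen.

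A set of 4 short motifs was searched on both strands in the 300 bases from 250 before to 50 after each start. TGACGTCA, the cyclic AMP response element, was found in Spata7 alone, with its first base 7 bases before the start and its last at the start, and in 2.03% of all genes. It is in capitals in the sequence printed here.
Spata7 (chr12:98627892-98628147, plus strand): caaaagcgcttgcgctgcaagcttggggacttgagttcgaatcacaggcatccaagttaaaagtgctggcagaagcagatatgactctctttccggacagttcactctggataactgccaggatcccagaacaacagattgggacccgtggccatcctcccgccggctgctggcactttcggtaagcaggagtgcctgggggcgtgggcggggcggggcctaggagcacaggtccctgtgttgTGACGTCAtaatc
GTTGCCATG, part of the X-box of RFX factors, was found in Spata33 alone (0.877% of all genes), and CAACTG, the MYB core, in Spata48 alone (15.4%). CCAAT was found in 10 of 28 members (35.7%) and in 41.1% of all genes, so the members held it about as often as other genes. A match is a description of the letters and not of a bound site.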

How the data were processed

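The single-cell matrices hold raw UMI counts for every barcode, as the authors deposited them, and the file header names Cell Ranger. Barcodes with at least 3000 UMIs (the rule of the set) and at most 10% mitochondrial UMIs were kept. Cells were given the class of their highest marker score where it led by 0.2, and were summed per class and library. Levels are CPM with 95% Poisson intervals, and ratios are log2 ratios of CPM with exact conditional binomial intervals, drawn where both libraries together had 30 UMIs. Clusters were made with Leiden clustering in scanpy 1.11.5 (Python 3.11.15) without the Spata genes. With 1 library per genotype no test was run. The ratio intervals were tested on simulated Poisson counts, which hold no spread between cells or animals, so the test covers counting error alone.

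Per the submitters' processing notes, the chromatin reads were processed with cutadapt, Bowtie2, MACS2, SAMtools, deepTools and SEACR on mm10, and peaks were listed per sample. The deposited ATAC lists give a score, a fold (ratio) over background and -log10 p and q per peak, of which the fold was printed. The deposited H3K27me3 lists give summed signal per region. By the file names, some of these libraries were downsampled before regions were called. Promoters were taken from a RefSeq table, and a peak counted with 1 base of overlap.

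Values are given in full for the 3 highest members of each class, members with a known role, and members past 1.5-fold in their class of highest control level. The members, gene lists, markers and tests were chosen with earlier results of these data known. Alternatives were the UMI minimum, mitochondrial limit, class margin, clusters in place of classes, Scrublet, thinning, scaling, UMI floor, fold, promoter window, the upper 50% of each peak list and leaving out each chromatin library. Free RNA subtraction, the Stra8 split and the comparison with 5 somatic classes were added after the data were seen. The bulk transcript test was not run, because transcript identifiers could not be paired with symbols. The value of 1 listed gene is not reported here.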

Additional observations from a re-analysis of the deposited data

Results flagged for a closer look

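Insulin RNA, which belongs to no comparison above, was abundant in barcodes of 30 to 99 UMIs. Ins1 made up 11.1% of their UMIs in the control and 10.2% in the cKO library. Ins2 made up 23.5% and 22.1%. In the cells kept, Ins1 was at 2.04 and 2.55 CPM and Ins2 at 4.52 and 6.23 CPM. In the barcodes used for free RNA, Ins1 was at 23.6 and 36.1 CPM and Ins2 at 52.1 and 81.6 CPM. For this reason the free RNA values above were taken from barcodes of 500 or more and under 2000 UMIs, a range chosen after these values were seen. The source of the insulin RNA was not tested.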

How the results depend on the processing

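The log2 ratio of Spata22 ran from -1.22 to -0.83 and that of Spata31d1c from -1.51 to -1.39 over the settings tried. Of 331 recomputed values for single members, 318 kept their sign and 41 moved beyond their counting interval. These values cover all 30 members, with Spata13 and Spata5l1, which had under 30 UMIs, among them. The number of members highest in spermatids was 21 to 23 under every setting. Counts of members past 2-fold rest on few genes with few UMIs. In spermatogonia-like cells the main count of 1 became 2 with a 2000 UMI minimum, with thinning or at 1.5-fold, 4 with at least 10 UMIs, and 0 with a 5000 UMI minimum, with at least 100 UMIs or with free RNA subtracted. In early spermatocyte-like cells the 5 became 12 at 1.5-fold and 3 with a 5000 UMI minimum, no margin, Leiden clusters, the trimmed mean, at least 100 UMIs or free RNA subtracted. In round spermatid-like cells the 2 became 1 with a 5000 UMI minimum, no mitochondrial limit, a margin of 0.4, Leiden clusters or thinning. In elongating spermatid-like cells the 1 became 0 with a 2000 or 5000 UMI minimum, no margin, Leiden clusters or the trimmed mean, 2 with thinning or at least 10 UMIs, and 3 at 1.5-fold. Members below a log2 ratio of 0 in spermatogonia-like cells were 17 of 23, beside 57.2% of all genes. Their number became 9 with a 5000 UMI minimum or free RNA subtracted and 11 with no margin. In late spermatocyte-like cells the 23 of 28, beside 58% of all genes, became 14 with Leiden clusters. For most of these other settings the shares of all genes were not computed. Past 1.5-fold in either direction were 14.4% of all genes in spermatogonia-like, 20.5% in early spermatocyte-like and 12.4% in elongating spermatid-like cells. With free RNA subtracted, 7.42% of all genes were 2-fold lower in early spermatocyte-like cells. Members above Leydig-like cells were 7 in late spermatocyte-like, 20 in round and 16 in elongating spermatid-like cells. The counts became 3, 10 and 10 when each of 5 classes named for somatic markers replaced Leydig-like cells. H3K27me3 in every library went from 3 members to 6 with a 5000-base window and 1 in the upper 50% of each list. Apart from fewer genes or cells entering, the cause was not tested. Leaving out each chromatin library gave 9 to 10 members with ATAC peaks and 3 with H3K27me3 in every other library. No paired analysis was possible because each genotype has 1 single-cell library and the peak lists were compared without a test.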

Other observations

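The Tex genes are another set named for testis expression. Of 37 Tex genes that reached 10 CPM in the control library, 13 were highest in round and 10 in elongating spermatid-like cells, 7 in spermatogonia-like cells, 5 in early and 2 in late spermatocyte-like cells. Of 10 Spag genes, 5 were highest in late spermatocyte-like cells, 3 in round spermatid-like and 2 in early spermatocyte-like cells. Of all genes that reached 10 CPM, 28.7% were highest in spermatogonia-like, 20.3% in early and 22.1% in late spermatocyte-like, 18.8% in round and 10.1% in elongating spermatid-like cells. Genes of head-tail coupling, the structure that Spata6 serves, were highest in elongating spermatid-like cells for 4 of 8. Of 9 genes of the sperm mitochondrial sheath 5 were highest in late spermatocyte-like, 2 in round and 2 in elongating spermatid-like cells. Sun5 and Odf1 of the head-tail list and Smcp of the sheath list were among the markers that defined the spermatid classes. Their class of highest level was thus not independent of the gating. In early spermatocyte-like cells 9 of 37 Tex genes and 0 of 10 Spag genes with 30 UMIs were 2-fold lower in the cKO library, beside 5.56% of all genes. The medians of their log2 ratios were -0.54 and -0.07, beside -0.12 for all genes. The difference between these sets was not tested.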
